A study of Sus scrofa with 6 samples.

Results

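The tropomyosin genes TPM1, TPM2, TPM3 and TPM4 were examined in mature pig eggs taken from sows and from prepubertal gilts. All 12 probe sets whose single platform gene symbol is one of these 4 names were taken, of 6765 genes with a single symbol on the array: 3 for TPM1, 4 for TPM2, 3 for TPM3 and 2 for TPM4. The family was chosen because some of its probe sets went opposite ways between prepubertal and adult oocytes, so every difference between the groups given here for a tropomyosin is a description. Where limma calls of tropomyosin probe sets are given, they are not a test of these differences, and nothing is read from them. The data are 6 Affymetrix porcine arrays, 3 of oocytes from adult sows and 3 of oocytes from prepubertal gilts, named in the labels as biological replicates. In both groups the oocytes came from follicles of 2 to 6 mm, were matured in culture for 42 to 44 h, were stripped of cumulus cells with hyaluronidase and vortexing, and showed a first polar body. The labels call the adult oocytes developmentally competent and the prepubertal ones incompetent, and the numbers of oocytes and animals per array are not in them.

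Tropomyosins are coiled-coil proteins that join end to end along the groove of an actin filament and set which other proteins can reach it, myosin and filament-severing proteins among them. Together the 4 genes give many isoforms through alternative promoters and exons. TPM1, TPM2 and TPM3 encode both muscle and non-muscle forms, whereas TPM4 is known mainly for non-muscle forms. In the oocyte, actin filaments move and anchor the meiotic spindle and form the cortex under the plasma membrane. Which isoforms a probe set detects is not given in the sources used here, and the values come from amplified poly(A) RNA, so they follow mainly the 3′ ends of transcripts and the length of their poly(A) tails.

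The values are MAS5 signals, 1 per probe set and array, in arbitrary units. Across all 23999 non-control probe sets the array medians lay between 16.4 and 21.7, and 6 control probe sets for a bacterial trp gene read between 0.569 and 19.9 with a median of 2.47, which gives a measure of a low signal here. The arrays were not at one level, with 2% trimmed means of 121 to 160 in the adult group and 105 to 131 in the prepubertal group. Differences are given on the log2(signal + 16) scale, prepubertal minus adult, both as deposited and with quantile normalization, which gives every array the same distribution of values. The median difference of all 12000 tested probe sets (those at or above the median level) was −0.20 as deposited and −0.01 after quantile normalization. Of the 12 tropomyosin probe sets 6 reached that level: 2 of TPM1, 2 of TPM3, both of TPM4 and 0 of TPM2.

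**Figure D1:**
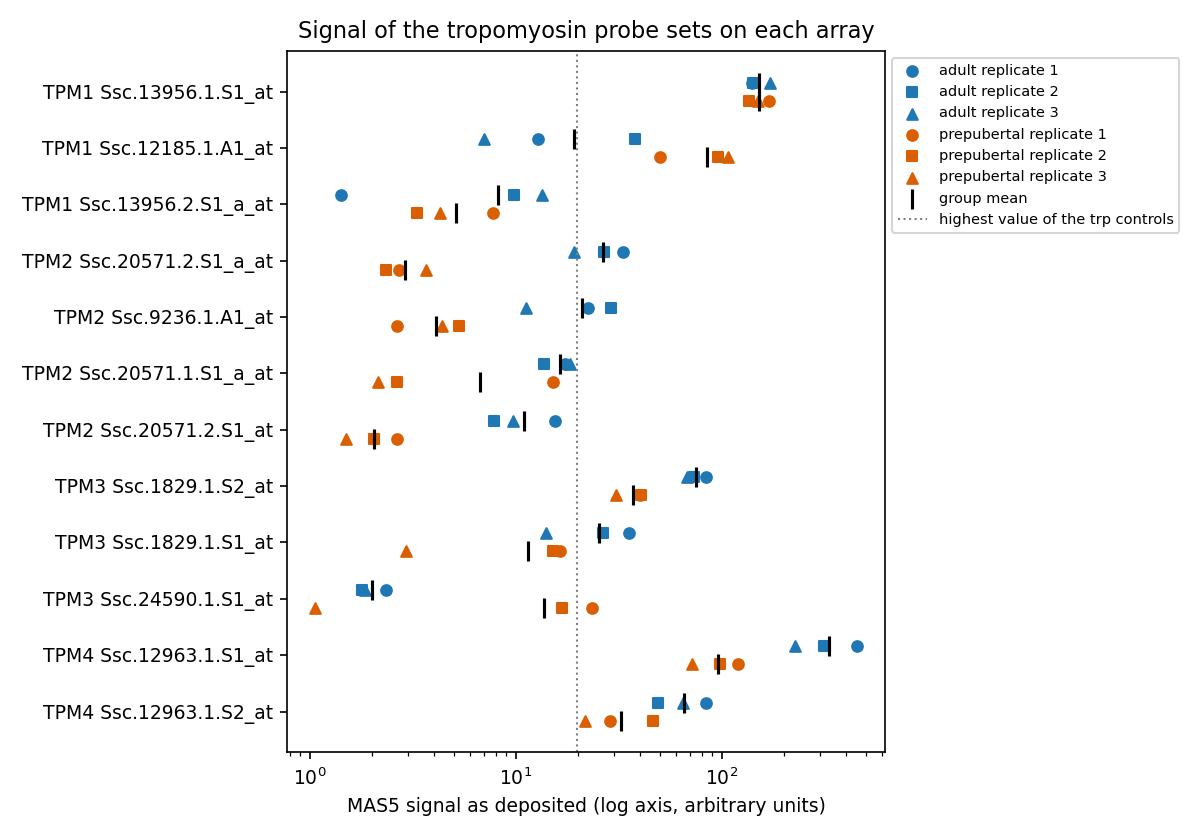
MAS5 signal of each tropomyosin probe set (log axis) on the 3 adult arrays (blue) and the 3 prepubertal arrays (orange), with black ticks at the group means and a dotted line at 19.9, the highest value of the trp control probe sets. Both TPM4 probe sets and the brightest TPM3 probe set lie lower on every prepubertal array, TPM1 Ssc.12185.1.A1_at lies higher on every prepubertal array, and the prepubertal TPM2 values lie at or below 15.2.

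TPM4, known mainly from non-muscle actin filaments, had its 2 probe sets lower in prepubertal oocytes. The brighter one, Ssc.12963.1.S1_at, had signals of 456, 314 and 227 on adult arrays 1, 2 and 3 and of 120, 97.6 and 71.6 on prepubertal arrays 1, 2 and 3. The groups did not overlap, and the lowest adult array was above the highest prepubertal one. The means were 332 ± 116 and 96.3 ± 24.0 (SD, n = 3 arrays each). On the log2 scale the difference was −1.60 as deposited and −1.37 after quantile normalization.

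The dimmer TPM4 probe set, Ssc.12963.1.S2_at, carries the same RefSeq mRNA in the platform annotation, so the pair share a target transcript and are not independent measurements. Its signals were 83.8, 48.9 and 64.5 on the adult arrays and 28.8, 46.4 and 21.6 on the prepubertal arrays. These groups were separated only by the gap between adult replicate 2 and prepubertal replicate 2, and after quantile normalization, where these arrays read 52.2 and 52.5, they overlapped. Its log2 difference was −0.77 as deposited and −0.62 after quantile normalization. Within an array the brighter TPM4 probe set exceeded the dimmer one by 2.06 ± 0.41 on the log2 scale in adult and 1.23 ± 0.37 in prepubertal oocytes (SD, n = 3). These ratios overlapped between the groups, with adult arrays at 2.24, 2.35 and 1.59 and prepubertal arrays at 1.60, 0.86 and 1.22.

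TPM1, which encodes the alpha-tropomyosin of striated muscle and several non-muscle forms, had 3 probe sets that went different ways. The brightest, Ssc.13956.1.S1_at, had signals of 140, 142 and 171 on the adult arrays and 170, 135 and 150.3 on the prepubertal arrays. The groups overlapped almost fully, with means of 151 ± 17.2 and 152 ± 17.5 (SD, n = 3). After quantile normalization the adult arrays read 113, 149.5 and 154 and the prepubertal arrays 168, 163 and 168, so the groups then did not overlap. Its log2 difference was 0.01 as deposited and 0.24 after quantile normalization, and its direction turned below 0 when some single arrays were left out of the deposited values.

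The second TPM1 probe set, Ssc.12185.1.A1_at, had signals of 12.7, 38.0 and 6.99 on the adult arrays and of 49.9, 96.2 and 107 on the prepubertal arrays. All prepubertal arrays were higher, but adult replicate 2 and prepubertal replicate 1 lay close together. The means were 19.2 ± 16.5 and 84.3 ± 30.3 (SD, n = 3). On the log2 scale the difference was 1.56 as deposited and 1.69 after quantile normalization. Of the adult values 2 lay within the range of the trp controls, so the size depends on the added constant: it was 2.32 with a constant of 1 and 0.83 with a constant of 64. The third TPM1 probe set, Ssc.13956.2.S1_a_at, stayed between 1.41 and 13.4 on all 6 arrays, inside the range of the trp controls, and its groups overlapped.

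These TPM1 probe sets disagreed widely among themselves. The log2 differences of the 3 spanned 1.72, and 0 of the 2261 genes with 2 or more probe sets had a wider span as deposited, as also after quantile normalization (span 1.83). With a constant of 1 in place of 16, 39 genes had a wider span, and with a constant of 64, 5 genes. Opposite signs within a gene were common in the table: among the 515 genes with 3 probe sets, 65.2% had differences on both sides of 0 as deposited and 72.2% after quantile normalization. TPM1 was chosen for this disagreement, so its place among the genes supports nothing further.

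TPM3, known in muscle for the slow-fibre tropomyosin and elsewhere for short cytoskeletal forms, also had probe sets on both sides of 0. The brightest, Ssc.1829.1.S2_at, had signals of 83.4, 73.5 and 67.8 on the adult arrays and 40.0, 40.5 and 30.7 on the prepubertal arrays. The values were tight within each group and did not overlap, with means of 74.9 ± 7.86 and 37.1 ± 5.49 (SD, n = 3). The log2 difference was −0.78 as deposited and −0.63 after quantile normalization. A second probe set of the same RefSeq mRNA, Ssc.1829.1.S1_at, had signals of 35.5, 26.4 and 14.0 on the adult arrays and 16.3, 15.2 and 2.94 on the prepubertal arrays. Here adult replicate 3 lay below prepubertal replicates 1 and 2, so the groups overlapped, and the log2 difference of −0.59 became −0.34 without prepubertal replicate 3.

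The third TPM3 probe set, Ssc.24590.1.S1_at, read 2.35, 1.79 and 1.84 on the adult arrays and 23.3, 16.7 and 1.05 on the prepubertal arrays. Prepubertal replicates 1 and 2 stood far above the other arrays, while prepubertal replicate 3 was the lowest of all 6. Its log2 difference of 0.64 became 0.39 without prepubertal replicate 1 and 1.00 without prepubertal replicate 3. The 3 TPM3 differences spanned 1.42 on the log2 scale, and 6 of the 2261 genes had a wider span as deposited, 8 after quantile normalization, 11 with a constant of 1 and 43 with a constant of 64. This span rests on the dim Ssc.24590.1.S1_at, whose values lie within or just above the range of the trp controls. The tested pair, Ssc.1829.1.S2_at and Ssc.1829.1.S1_at, spanned 0.18, and 645 of the 910 genes with 2 or more tested probe sets had a wider span. TPM3 too was chosen with its opposite directions known, so its rank supports nothing.

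TPM2, which encodes the beta-tropomyosin of skeletal and smooth muscle, had low signals in both groups and lower ones in prepubertal oocytes by all 4 probe sets. Its brightest, Ssc.20571.2.S1_a_at, had signals of 33.2, 26.8 and 19.1 on the adult arrays and 2.70, 2.35 and 3.68 on the prepubertal arrays. The groups were far apart, with means of 26.3 ± 7.06 and 2.91 ± 0.688 (SD, n = 3), and every prepubertal value lay near the median of the trp controls. On the log2 scale with 16 added the difference was −1.15 as deposited and −1.09 after quantile normalization, and it was −2.79 with a constant of 1 and −0.43 with a constant of 64.

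A probe set from the same expressed sequence tag, Ssc.20571.2.S1_at, had signals of 15.5, 7.81 and 9.67 on the adult arrays and 2.64, 2.04 and 1.50 on the prepubertal arrays. The third, Ssc.9236.1.A1_at, had 22.3, 29.1 and 11.2 on the adult arrays and 2.64, 5.29 and 4.39 on the prepubertal arrays. Neither of these overlapped between the groups. The fourth, Ssc.20571.1.S1_a_at, had 17.3, 13.7 and 18.4 on the adult arrays against 15.2, 2.64 and 2.15 on the prepubertal arrays, where prepubertal replicate 1 fell within the adult range. The 4 log2 differences lay between −1.15 and −0.56 as deposited and between −1.09 and −0.49 after quantile normalization. No TPM2 probe set reached the level at which probe sets were tested, so TPM2 has no part in the counts of calls. In 3 of its 4 probe sets all prepubertal arrays lay below all adult arrays, as did 6.18% of the probe sets under that level.

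**Figure D2:**
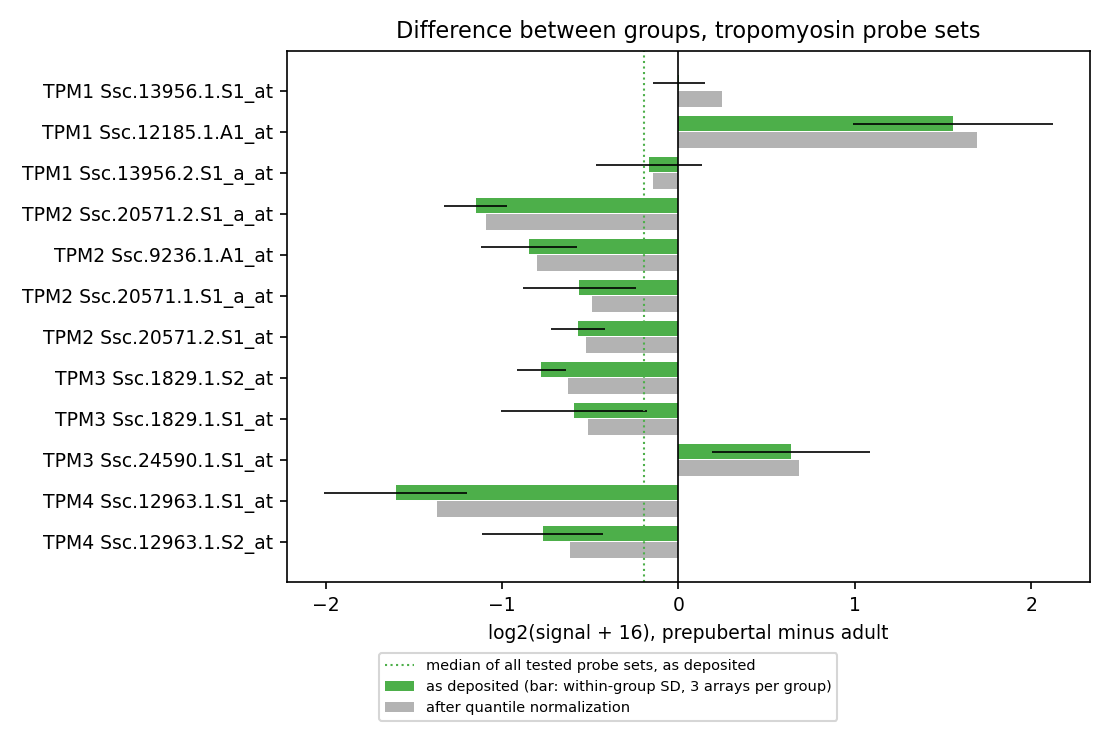
Difference in log2(signal + 16), prepubertal minus adult, for each tropomyosin probe set as deposited (green, with the within-group SD over 3 arrays per group as a line) and after quantile normalization (grey), with a dotted line at −0.20, the median of all tested probe sets as deposited. Bars to the left are lower in prepubertal oocytes: 9 of the 12 as deposited and 9 of the 12 after quantile normalization.

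Over the family, 9 of 12 probe sets had lower values in prepubertal oocytes as deposited, where 65.1% of all probe sets did, and 9 after quantile normalization, where 50% did. The median log2 difference of the 12 was −0.58 as deposited and −0.52 after quantile normalization, against −0.11 and 0.00 for all 23999 probe sets. In 6 of the 12 all prepubertal arrays lay below all adult arrays, as did 11.7% of all probe sets, and in 1 all lay above, as did 2.81%. After quantile normalization these counts were 5 and 2, where 6.81% and 6.38% of all probe sets were separated. In limma's fit over the 12000 tested probe sets, 0.475% passed an adjusted p of 0.05 as deposited and 0.117% after quantile normalization. TPM4 Ssc.12963.1.S1_at and TPM1 Ssc.12185.1.A1_at were among those as deposited, and TPM4 Ssc.12963.1.S1_at after quantile normalization. The family was chosen from this contrast, so nothing is read from these counts.

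A scaling factor common to an array cancels in ratios taken within that array, apart from the added constant, but quantile normalization is not such a factor and can move them. On every adult array the brighter TPM4 probe set had the highest signal of the 12, and on every prepubertal array TPM1 Ssc.13956.1.S1_at did. The log2 ratio of this TPM4 to this TPM1 probe set was 1.59, 1.06 and 0.37 on the adult arrays and −0.46, −0.41 and −0.93 on the prepubertal arrays. The adult ratios were above 0 and the prepubertal ones below, with means of 1.01 ± 0.61 and −0.60 ± 0.28 (SD, n = 3). After quantile normalization these means were 0.99 and −0.63. Against TPM1 Ssc.12185.1.A1_at the adult ratio has only a lower bound, because on adult replicates 1 and 3 this TPM1 probe set read within the range of the trp controls. With those values raised to the trp maximum of 19.9, the TPM4 probe set was higher by at least 3.03 on average on the adult arrays, and it was 0.19 ± 0.78 higher on the prepubertal arrays. Between the groups the ratio of the 2 TPM4 probe sets differed by −0.83 as deposited, and by −0.75 with quantile normalization.

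**Figure D3:**
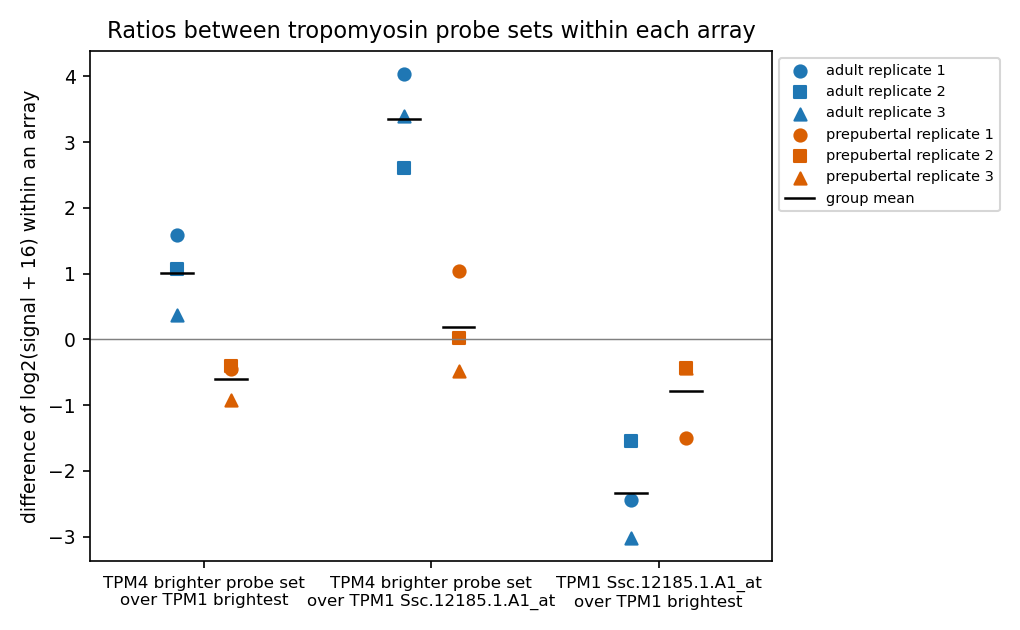
Within-array differences of log2(signal + 16) between 3 pairs of tropomyosin probe sets on each adult (blue) and prepubertal (orange) array, with black lines at the group means. The ratio of TPM4 Ssc.12963.1.S1_at to TPM1 Ssc.13956.1.S1_at is above 0 on the 3 adult arrays and below 0 on the 3 prepubertal arrays. Ratios with TPM1 Ssc.12185.1.A1_at are plotted from its values as deposited, of which those of adult replicates 1 and 3 lie within the range of the trp controls.

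Signals of different probe sets do not rank transcripts, because probes bind with different strength, so these data do not settle which tropomyosin gene has the most mRNA in the egg. As signals, TPM4 Ssc.12963.1.S1_at and TPM1 Ssc.13956.1.S1_at stood at mean percentiles of 83.3 and 82.7 among all probe sets of an array, with a range over arrays of 76.3 to 89.1 for TPM4 and 80.3 to 83.6 for TPM1. The mean signals next in order in adult oocytes were TPM3 Ssc.1829.1.S2_at and TPM4 Ssc.12963.1.S2_at, at 74.9 ± 7.86 and 65.7 ± 17.4 (SD, n = 3), which did not differ beyond their spread. The brightest TPM2 probe set and TPM3 Ssc.1829.1.S1_at, at 26.3 ± 7.06 and 25.3 ± 10.8, did not either. In prepubertal oocytes TPM4 Ssc.12963.1.S1_at and TPM1 Ssc.12185.1.A1_at, at 96.3 ± 24.0 and 84.3 ± 30.3, overlapped, followed by TPM3 Ssc.1829.1.S2_at and TPM4 Ssc.12963.1.S2_at at 37.1 ± 5.49 and 32.3 ± 12.8.

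The probe sets also differed in how far replicates spread. Set against the 1000 probe sets nearest in level, the within-group SD of TPM1 Ssc.12185.1.A1_at, 0.57 on the log2 scale, stood at percentile 92.9, and that of TPM4 Ssc.12963.1.S1_at, 0.41, at percentile 86.1. TPM3 Ssc.1829.1.S2_at and TPM1 Ssc.13956.1.S1_at varied little, with SDs of 0.14 and 0.15 at percentiles 6 and 10.4. Of the dim probe sets, TPM3 Ssc.24590.1.S1_at stood at percentile 88.7, and TPM2 Ssc.20571.2.S1_at and Ssc.20571.2.S1_a_at at 4.7 and 4.9. Single arrays recurred at the ends: prepubertal replicate 3 was the lowest of its group for 7 of the 12 probe sets, among them all 3 of TPM3 and both of TPM4. Adult replicate 3 was the lowest of its group for 6. Adult replicate 1 and prepubertal replicate 1 were each the highest of their group for 7, and each had the highest trimmed mean of its group, 160 and 131. The ratio of the 3′ to the 5′ control probe set, a sign of RNA length, overlapped between the groups for all 3 control genes. For GAPDH it was 3.30 ± 0.29 on the log2 scale in adult and 2.80 ± 0.31 in prepubertal oocytes (SD, n = 3; exact permutation p = 0.2, 2-sided, where 0.1 is the smallest possible). For actin it was 7.98 ± 0.32 and 7.79 ± 0.40 (exact permutation p = 0.7), and for EF1A 5.30 ± 0.50 and 5.19 ± 0.36 (exact permutation p = 0.9). Its part in the differences between probe sets of one gene was not tested.

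Tropomyosins are abundant in muscle and stroma, so markers of other cells were read beside them. In RNA of a whole sample, fewer cells of a type and less RNA per cell cannot be told apart. The 2 brightest oocyte markers were WEE2, an oocyte kinase, and ZP4, an egg coat protein. Their means in adult and prepubertal oocytes were 11599 ± 719 and 11563 ± 1719 for WEE2 and 2636 ± 279 and 2544 ± 111 for ZP4 (SD, n = 3). Of 15 oocyte markers 8 were on the array, and the mean level of the 7 tested differed by −0.14 as deposited and 0.08 after quantile normalization (exact permutation p = 0.3 and 0.4). Of the 8, 6 had lower values as deposited, where 65.1% of all probe sets did, and 1 had a median signal under 10. In 2 all prepubertal arrays lay below all adult arrays, as in 11.7% of all probe sets. These were NPM2, with means of 77.4 and 59.9, and KIT, with means of 23.3 and 4.96, both named outside the rule. Of 18 markers of smooth muscle, theca and stroma 15 were on the array, and their summed signal was 292 to 398 on adult and 276 to 310.1 on prepubertal arrays. Of these 15, 6 had a median signal under 10. The markers of this list given below, apart from FN1 and PDGFRB, were named outside the rule. ACTA2, the smooth muscle actin, read 25.8, 5.47 and 23.0 on the adult arrays and 4.80, 6.17 and 8.30 on the prepubertal arrays, and TAGLN, transgelin, 8.05, 2.52 and 13.7 against 2.51, 4.29 and 3.50. Adult replicate 2 was the lowest adult array for both. It was also the lowest adult array for TPM2 Ssc.20571.2.S1_at and Ssc.20571.1.S1_a_at, at 7.81 and 13.7, but the middle one for Ssc.20571.2.S1_a_at, at 26.8, and the highest for Ssc.9236.1.A1_at, at 29.1. DES, desmin of the muscle cytoskeleton, read 16.5, 40.9 and 55.2 on the adult arrays. CNN1, smooth muscle calponin, had means of 3.94 and 4.38, and MYLK, myosin light chain kinase, of 4.46 and 8.20. COL3A1, a stromal collagen, was chosen after its values were seen. It had lower values on every prepubertal array, at 41.2 on average against 16.2, a log2 difference of −0.85 that did not pass the test (limma adjusted p = 0.214). It was the only 1 of the 15 with all prepubertal arrays below all adult arrays, as were 11.7% of all probe sets. Of the 15, 9 had lower values as deposited, where 65.1% of all probe sets did. Among the others, COL1A2, also a collagen, had means of 45.7 and 47.2, and DCN, decorin, of 15.9 and 19.2. The brightest of the list were FN1, fibronectin (59.8 ± 8.59 and 51.1 ± 9.26), and PDGFRB, a platelet-derived growth factor receptor (54.6 ± 20.7 and 41.6 ± 3.56).

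**Figure D4:**
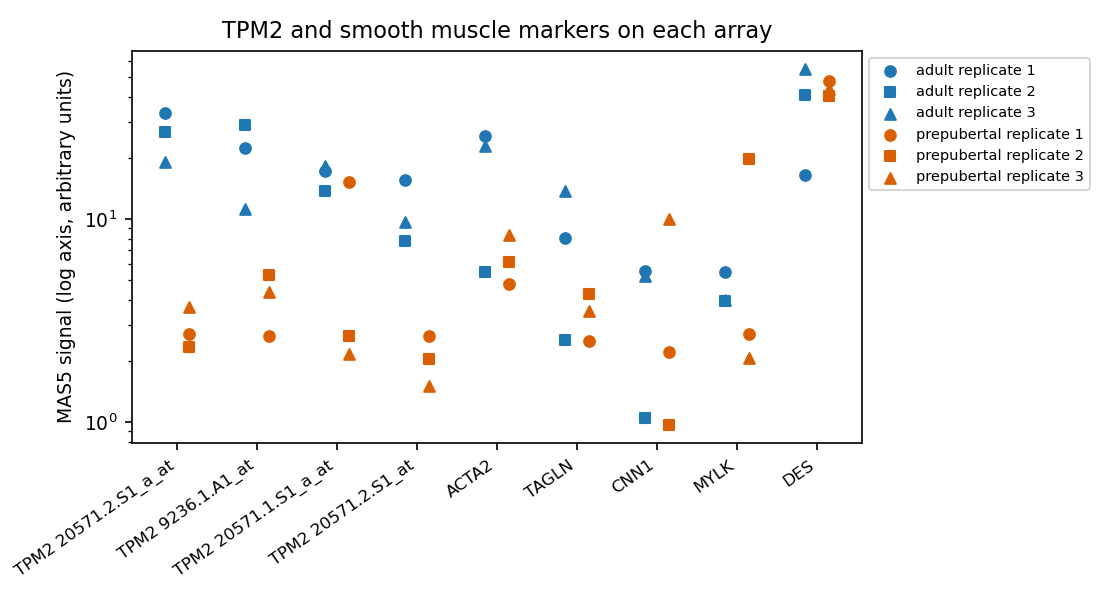
MAS5 signal (log axis) of the 4 TPM2 probe sets and of the contractile smooth muscle markers ACTA2, TAGLN, CNN1, MYLK and DES on each adult (blue) and prepubertal (orange) array. On adult replicate 2, ACTA2, TAGLN and 2 of the 4 TPM2 probe sets (7.81 and 13.7) are the lowest of the adult arrays, the other two TPM2 probe sets read 26.8 and 29.1, and DES reads 40.9.

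The mean log2 level of the 8 tested smooth muscle, theca and stroma markers differed by −0.18 as deposited (exact permutation p = 0.2) and −0.07 after quantile normalization (exact permutation p = 0.3). Cumulus and granulosa markers, 17 of 19 on the array, summed to 484 to 625 on adult and 448 to 539 on prepubertal arrays, and 8 had a median under 10. TNFAIP6, a cumulus matrix gene, read at most 7.96, and FSHR, the follicle-stimulating hormone receptor, at most 6.04, both named outside the rule. SERPINE2, NR5A1 and VCAN, also named outside the rule, had adult means of 69.3, 59.7 and 49.4. Of the 17, all prepubertal arrays lay below all adult arrays in 2, as in 11.7% of all probe sets. They lay above in 1, LHCGR (13.8 and 24.5 on average), as in 2.81%. The brightest were INHBA, an activin subunit (126 ± 14.6 and 100.3 ± 10.2), and FST, follistatin (128 ± 24.1 and 92.0 ± 1.81). Blood, immune and endothelial markers, 11 of 14 on the array, summed to 435 to 650 and 289 to 553, led by the globin HBB (296 ± 115 and 214 ± 133) and PECAM1 (51.5 ± 6.63 and 45.9 ± 8.02). The list means of the cumulus and blood markers differed by −0.10 and −0.14 as deposited (exact permutation p = 0.4 and 0.6) and by 0.05 and −0.01 after quantile normalization (exact permutation p = 0.6 and 1). Single arrays moved these small differences: as deposited, the cumulus difference was −0.17 without prepubertal replicate 3 and −0.03 without prepubertal replicate 2, and the blood difference −0.30 without prepubertal replicate 1 and −0.05 without prepubertal replicate 2. The part of these markers in the tropomyosin differences was not tested.

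The other genes of the actin filament and its regulation were taken from fixed lists of 124 genes, of which 90 were on the array and 66 tested, with the brightest probe set standing for a gene. In limma's fit 0 passed an adjusted p of 0.05, either as deposited or with quantile normalization. The 95% intervals of the 66 differences in limma reached 0.49 on the log2 scale to either side at the median and 0.75 at most, so these arrays could miss changes of the sizes given below, and missing the threshold does not show equal levels. Before adjustment, at p under 0.05, 13 genes had lower and 1 had higher values, 14 of 66, where 14.7% of all tested probe sets were below that level. The median log2 difference of the 66 was −0.15 as deposited and 0.02 after quantile normalization, against −0.20 and −0.01 over all tested probe sets. Single settings moved the count: leaving out prepubertal replicate 1 gave 5 genes, CAP2, ACTR2, CELF2 and HNRNPH1 with lower values and SRSF1 with higher ones, where 5.14% of all tested probe sets passed. Array weights gave 10 genes, all with lower values, where 10.5% of all tested probe sets passed.

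Actin itself was bright. ACTB, cytoplasmic beta-actin, had signals of 866 ± 182 in adult and 728 ± 103 in prepubertal oocytes (SD, n = 3; limma adjusted p = 0.645), and ACTG1, gamma-actin, 2736 ± 183 and 2448 ± 263 (limma adjusted p = 0.674). Both had log2 differences below 0 as deposited and above 0 after quantile normalization, and a dimmer ACTB probe set had 0.21 and 0.48. A second tested ACTG1 probe set, with mean signals of 544 and 378, had differences of −0.51 and −0.22 (limma adjusted p = 0.316 as deposited). Of the 14 tested genes that cap filaments, cut them or bind monomers, CAP2, a cyclase-associated protein, had values 1.61-fold lower (limma adjusted p = 0.203) and CFL1, cofilin, which severs filaments, 1.28-fold lower (limma adjusted p = 0.471). The tropomodulins, which cap the pointed end together with tropomyosin, did not pass the test: TMOD1 had 102 and 112 on average and TMOD3 78.9 and 65.0 in adult and prepubertal oocytes (limma adjusted p = 0.835 and 0.682). Their log2 differences had 95% intervals of −0.36 to 0.60 and −0.69 to 0.25, and both were named outside the rule, for their tie to tropomyosin. Among the 17 tested genes of filament nucleation, ACTR2, a subunit of the Arp2/3 complex, had values 1.61-fold lower. Its adjusted p, 0.0982 in limma, was the lowest of the lists. ARPC2 of the same complex had values 1.67-fold lower (limma adjusted p = 0.203), with mean signals of 76.2 and 39.9. Other tested subunits of the complex, named outside the rule, were not alike. ARPC1B, ARPC5L and ARPC3 had log2 differences of −0.59, −0.47 and −0.40 as deposited. ACTR3 had −0.05, and ARPC5, ARPC1A and ARPC4 had 0.02, 0.11 and 0.11.

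In the myosin II list (9 tested), ROCK1, a kinase that activates myosin, had values 1.49-fold lower and MYL6, a myosin light chain, 1.62-fold lower (limma adjusted p = 0.269 and 0.337). The mean signals of MYL6 were 40.6 in adult and 19.9 in prepubertal oocytes, and its groups overlapped. Crosslinkers and membrane linkers (9 tested) were led by VCL, vinculin, and ACTN2, an alpha-actinin, with values 1.42-fold and 1.43-fold lower (limma adjusted p = 0.297 and 0.342), and further probe sets of both differed less or had higher values. Of 13 troponin and sarcomere genes, whose proteins work with tropomyosin in striated muscle, 12 were on the array and 3 tested. NEB, nebulin, had 585 ± 115 and 394 ± 96.5 (limma adjusted p = 0.278) and DES, desmin, 37.5 ± 19.5 and 44.1 ± 3.96 (limma adjusted p = 0.717). The genes known to act on tropomyosin exon choice or on alternative splicing in general (11 tested) held CELF2, with values 1.66-fold lower (limma adjusted p = 0.169), and the SR protein SRSF1, with values 1.66-fold higher (limma adjusted p = 0.257). The SRSF1 groups overlapped. Further probe sets had log2 differences of −0.33 and 0.19 for CELF2 and of 0.28 and 0.02 for SRSF1 as deposited. PTBP1, a repressor of muscle exons, had 1264 and 1146 on average (limma adjusted p = 0.775), and was named outside the rule, for this role. Quantile normalization left ACTR2 and ARPC2 at values 1.33-fold and 1.50-fold lower, CAP2 at 1.33-fold and CELF2 at 1.39-fold lower, and SRSF1 at 2.01-fold higher.

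Profiles over the 6 arrays most like those of the 2 leading tropomyosin probe sets were sought among 5755 tested probe sets with 1 symbol, by the root-mean-square difference of log2 values centred on their own mean. Nearest to TPM4 Ssc.12963.1.S1_at was CFDP1, a chromatin-associated protein, at 0.26, followed by SMARCA5 and SMARCE1, subunits of chromatin remodellers, at 0.30 and 0.31, PLAC8 at 0.31 and MAPK6, an atypical MAP kinase, at 0.32. Their log2 differences lay between −1.53 and −1.10, as the measure requires of a profile close to this one. Nearest to TPM1 Ssc.12185.1.A1_at were PRKCD, a protein kinase C, and CACNB3, a calcium channel subunit, both at 0.47, then SRSF7, a splicing factor, at 0.48, IL10RB at 0.49 and GSTA4 at 0.50. The TPM1 profile had no neighbour as close as those of TPM4, and of its 5 only SRSF7 was above 100 in both groups, at 148 ± 28.0 and 315 ± 16.2 (SD, n = 3), whereas PRKCD read 9.36 and 28.3 on average.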

How the data were processed

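The authors deposited MAS5 signal values on a linear scale, 1 per probe set and array, according to the tool named per the labels (MAS5). Version and scaling target: not given in the sources used here. Per the labels' protocols, samples went through capture of poly(A) RNA on beads, 2 cycles of amplification and labelling as biotinylated cRNA. Every value column matched a sample (0 unmatched). Of 24123 probe sets 124 Affymetrix controls were left out. Symbols came from the platform's annotation, updated through RefSeq's gene table for Sscrofa11.1; 10069 probe sets had 1 symbol, 198 several and 13732 none listed.

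The deposited values were used without rescaling, and limma's quantile normalization stands beside them. After adding 16 and taking log2, probe sets at or above the median mean level were fitted with limma 3.58.1, R 4.3.3 (lmFit, eBayes with trend, 2-sided, Benjamini-Hochberg over 12000). Marker levels and 3′ to 5′ control ratios had exact permutation tests. The fit was tested on simulated data, where it found most of the larger changes set there and few of the smaller ones. Nothing says how replicates were taken beyond "biological", so p-values set a group difference only against the variation between these arrays. What that variation stands for is not given, and the number of arrays limits the precision.

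All tropomyosin probe sets were named, and from each fixed list up to 4 genes past an adjusted p of 0.05, the 2 with the smallest p and, of markers, the 2 brightest, plus the 5 genes nearest in profile to the tropomyosin probe sets with the largest fall and rise. The members, lists and tests were chosen with earlier results of these data known. Alternatives were other constants, filters and scalings, eBayes without trend, arrayWeights, a block for the replicate number, and leaving out each array. No coordinates are given, since the values carry no genome build.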

Additional observations from a re-analysis of the deposited data

How the results depend on the processing

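Of the 12 tropomyosin probe sets 9 to 10 had lower values when each array was left out in turn, and 8 to 9 when this was done with quantile normalization, a combination chosen after seeing the data. The difference of TPM4 Ssc.12963.1.S1_at stayed between −1.84 and −1.36 over the left-out arrays as deposited and between −1.60 and −1.20 with quantile normalization. For TPM1 Ssc.12185.1.A1_at the ranges were 1.30 to 1.91 and 1.42 to 2.10, and a constant of 1 gave 2.32 and a constant of 64 gave 0.83, as the construction of the scale makes the size of a dim value depend on the constant. TPM1 Ssc.13956.1.S1_at had a sign that turned with the array left out (−0.07 to 0.09). The dim TPM2 probe sets kept their direction in the 12 planned settings, between −2.79 and −0.18.

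The count of probe sets past an adjusted p of 0.05 in limma, 57 as deposited (4 higher, 53 lower), was 15 with a constant of 1, 14 after quantile normalization (3 higher, 11 lower), 20 after scaling to a common trimmed mean (4 higher, 16 lower) and 7 after centring on array medians (1 higher, 6 lower). It was 1 without a filter on low values, 173 with a filter at the 75th percentile, 1 without the trend, 1259 with array weights and 132 at a threshold of 0.10. Over the left-out arrays it ran from 3 to 617. The actin-related genes past it, 0 as deposited, were 1 with the stricter filter, 10 with array weights, 1 at the threshold of 0.10 and 0 to 5 over the left-out arrays. The mean level of the oocyte markers differed by −0.21 to −0.07 over the left-out arrays, and that of smooth muscle, theca and stroma by −0.26 to −0.14.

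Whether same-numbered arrays of the groups were handled together is not given in the sources used here. Their deviations from the group means correlated at 0.01 to 0.09. For replicates 1, 2 and 3 the trimmed means were 160, 121 and 141 in adult and 131, 105 and 113 in prepubertal oocytes. These ranked alike in both groups, whereas the array medians, 21.7, 17.0 and 19.1 against 16.4, 17.5 and 17.7, did not. A pairing by replicate number thus stays undecided. With the replicate number as a block 918 probe sets passed (7.65%), as did 6 of the 66 actin-related genes, and the tropomyosin differences do not change in this balanced design. Signals at the level of the trp controls limit what can be said of TPM2, of TPM1 Ssc.13956.2.S1_a_at and of TPM3 Ssc.24590.1.S1_at. The causes of these changes were not tested.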
